A study of Mus musculus with 12 samples.

Results

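The genes described here carry out and control MHC antigen presentation: 10 symbols of the 24982 in the count table, taken by name and not by any measured value. They are the class I heavy chains H2-K1 and H2-D1, the class I light chain B2m, the peptide transporter subunits Tap1 and Tap2, the peptide-loading chaperone Tapbp, the class II α-chain H2-Aa, the invariant chain Cd74, and the transactivators Nlrc5 and Ciita. The tables spell these in capitals, as B2M, TAP1, TAP2, TAPBP, H2-AA, CD74, NLRC5 and CIITA. The cells were cultured mouse B-ALL cells, a leukaemia of B-cell precursors, and their mRNA was sequenced. DKO cells carry Bax-/- and Bak-/-, and TKO cells carry Bax-/-, Bak-/- and Mcl-1-/-, so by its label every one of the 4 groups lacks the pro-apoptotic effectors Bax and Bak. Each genotype was kept for 24 h in regular or in low glucose medium, with 3 libraries per group and 12 in all. Each genotype is represented by 1 line as far as the labels say, and an effect of Mcl1 loss and a difference between lines cannot be told apart. Whether replicates were grown as separate cultures is not stated, so a p-value here measures the spread between these samples only, and that spread may be technical.

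Class I molecules pair a polymorphic heavy chain with B2m and show peptides made in the cytosol to CD8+ T cells. The peptides are cut by the proteasome and its interferon-inducible subunits, pumped into the endoplasmic reticulum by Tap1 and Tap2, and loaded with the help of Tapbp and other chaperones. Class II molecules show peptides from endosomes to CD4+ T cells, and the invariant chain Cd74 holds their groove until the peptide is exchanged there. Nlrc5 and Ciita bind no DNA themselves: they are recruited to the promoters of class I and class II genes by the factors that bind the X and Y boxes, namely the RFX complex, CREB-family proteins and NF-Y.

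The promoters of these genes are shown first, as the X and Y boxes are where Nlrc5 and Ciita are recruited. The part of these boxes in the levels measured here was not tested. RefSeq promoters of GRCm38.p6, the assembly also called mm10, were matched for 6 of the 10 members, and the 250 bases before each annotated start were searched on both strands. Capitals mark a match to the core of the Y box (ATTGG), the core of the X2 box (TGACG) or an interferon regulatory factor (IRF) site (GAANNGAAA), each on either strand. In H2-Aa the X2 core matches on both strands, and these 2 matches overlap. The H2-K1 window is chr17:34000334-34000583 on the minus strand, before the more downstream of its 2 RefSeq starts. The H2-D1 window is chr17:35262844-35263093 on the plus strand, and that of B2m is chr2:122147437-122147686 on the plus strand. The H2-Aa window is chr17:34287824-34288073 on the minus strand, and that of Tap1 is chr17:34187306-34187555 on the plus strand.
H2-K1: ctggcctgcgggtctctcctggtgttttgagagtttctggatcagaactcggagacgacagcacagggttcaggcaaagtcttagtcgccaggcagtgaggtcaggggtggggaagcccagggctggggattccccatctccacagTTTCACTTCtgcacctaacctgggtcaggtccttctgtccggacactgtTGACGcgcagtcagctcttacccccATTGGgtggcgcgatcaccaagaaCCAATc
H2-D1: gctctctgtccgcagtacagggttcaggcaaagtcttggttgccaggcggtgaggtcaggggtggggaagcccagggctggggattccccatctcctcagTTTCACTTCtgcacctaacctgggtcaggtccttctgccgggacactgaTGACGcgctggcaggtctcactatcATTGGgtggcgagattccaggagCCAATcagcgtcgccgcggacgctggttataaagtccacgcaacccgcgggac
B2m: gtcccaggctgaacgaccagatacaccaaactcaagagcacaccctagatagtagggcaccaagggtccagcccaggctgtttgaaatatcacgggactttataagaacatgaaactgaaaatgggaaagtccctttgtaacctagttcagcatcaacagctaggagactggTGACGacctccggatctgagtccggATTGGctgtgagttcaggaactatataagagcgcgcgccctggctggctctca
H2-Aa: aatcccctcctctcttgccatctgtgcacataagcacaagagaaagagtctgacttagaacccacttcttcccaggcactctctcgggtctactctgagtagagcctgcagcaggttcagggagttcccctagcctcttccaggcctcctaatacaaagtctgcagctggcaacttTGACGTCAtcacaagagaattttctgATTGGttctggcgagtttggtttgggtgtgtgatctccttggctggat
Tap1: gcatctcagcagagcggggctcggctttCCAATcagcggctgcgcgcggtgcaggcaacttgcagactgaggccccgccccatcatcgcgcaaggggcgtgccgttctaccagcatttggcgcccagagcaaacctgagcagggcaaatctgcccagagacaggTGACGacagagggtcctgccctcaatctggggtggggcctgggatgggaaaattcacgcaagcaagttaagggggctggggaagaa

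An X2 core followed by a Y core on the same strand, 25 bases from start to start, stood in the windows of H2-K1, H2-D1 and B2m, and H2-Aa held the same order at 26 bases. Of 32851 RefSeq promoters of the same length, 50 (0.152%) held that order at 25 or 26 bases, a spacing chosen after these sequences were seen. Among the 50 genes with a promoter out of a list of 64 antigen presentation genes, the nonclassical class I gene H2-M3 held it as well, also at 25 bases. Each core alone was common, since 33.8% of all promoters held a Y core and 17.8% an X2 core. Of the 6 members, 3 matched a pattern for the X1 box, as did 42% of all promoters. An NF-kB site pattern matched 5 members and 45.8% of all promoters, and an interferon-γ activated site (GAS) pattern 0 members and 7.02%. An X1 match followed by a Y core at 30 to 40 bases stood in 0 members and in 0.511% of all promoters. The IRF site in the form searched stood in H2-K1 and H2-D1, 104 and 150 bases before the start, and in 6.31% of all promoters. Other forms were not searched for: B2m holds the letters gaaactgaaa, which this pattern does not match, so its lack of a match shows no lack of an IRF site. Tap1 held an X2 core 86 bases and a Y core 222 bases before its start, in the other order, and Tapbp held 2 Y cores and no X2 core. A match describes letters in this window and shows no binding.

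**Figure D1:**
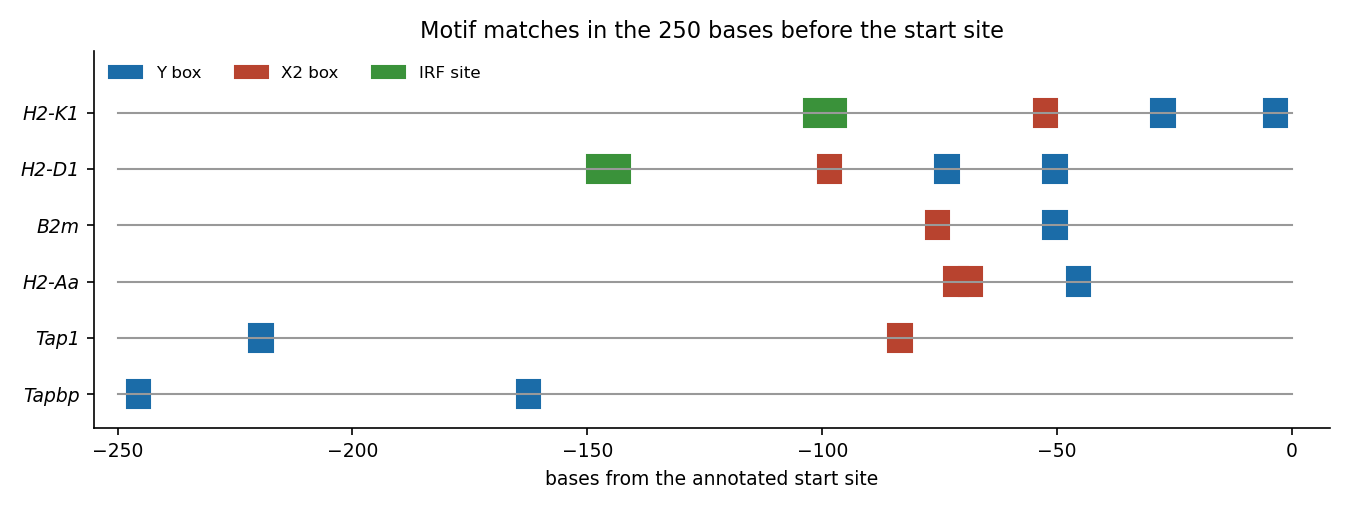
Motif matches in the promoters of 6 members, with the position in bases from the annotated start on the x axis and 1 line per gene, where coloured blocks are Y box, X2 box and IRF site matches on either strand. The X2 core lies 25 or 26 bases upstream of a Y core in H2-K1, H2-D1, B2m and H2-Aa, and not in Tap1 or Tapbp.

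The libraries held 22190736 to 56260867 counts, and 11988 genes passed the filter on low counts, all 10 members among them. H2-Aa passed through DKO libraries only, so its line difference is one that the filter favours. Mcl1 averaged 239 CPM (counts scaled by library size) in DKO and 0.406 in TKO libraries in regular medium, and 270 and 0.255 in low glucose, as its label says. Transcripts of the other 2 targeted genes were present in both lines and lower in TKO: in regular medium Bax averaged 17.1 CPM in DKO and 6.17 in TKO, and Bak1 16.9 and 5.30. Which part of these genes is deleted is not given in the labels, so their level does not check the deletion. All 10 B lineage markers averaged over 1 CPM in every group, and their summed level was 5329 to 6183 CPM. Single markers differed between the lines in both directions: in regular medium Pax5 averaged 811 CPM in DKO and 1396 in TKO and Cd22 121 and 279, while Igll1 averaged 743 and 422 and Blnk 360 and 225. Of the 9 T cell markers only Cd28 averaged over 1 CPM in any group, and Cd4 had no count in any library. In bulk samples, fewer cells of a type and less RNA per cell cannot be told apart.

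Levels were compared between genes in TPM, the deposited abundance per length of transcript. In DKO cells in regular medium B2m stood first at 3645 TPM ± 22.4 (SD, n = 3), followed by H2-K1 at 906 ± 10.7, H2-D1 at 197 ± 4.47, Cd74 at 136 ± 3.26 and Tap1 at 119 ± 3.25. Tap2 at 77.9 ± 1.75 and Tapbp at 76.0 ± 3.22 TPM did not differ beyond their spread, and Nlrc5 followed at 63.0 ± 1.59. H2-Aa averaged 0.650 ± 0.120 and Ciita 0.0569 ± 0.0338 TPM, so the class II chain and the class II transactivator were at the floor of the measurement while Cd74 was abundant. In TKO cells in the same medium B2m was again first at 2238 ± 384 TPM, and Cd74 at 320 ± 6.45 lay beside H2-K1 at 333 ± 17.5, with ranges that overlapped.

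**Figure D2:**
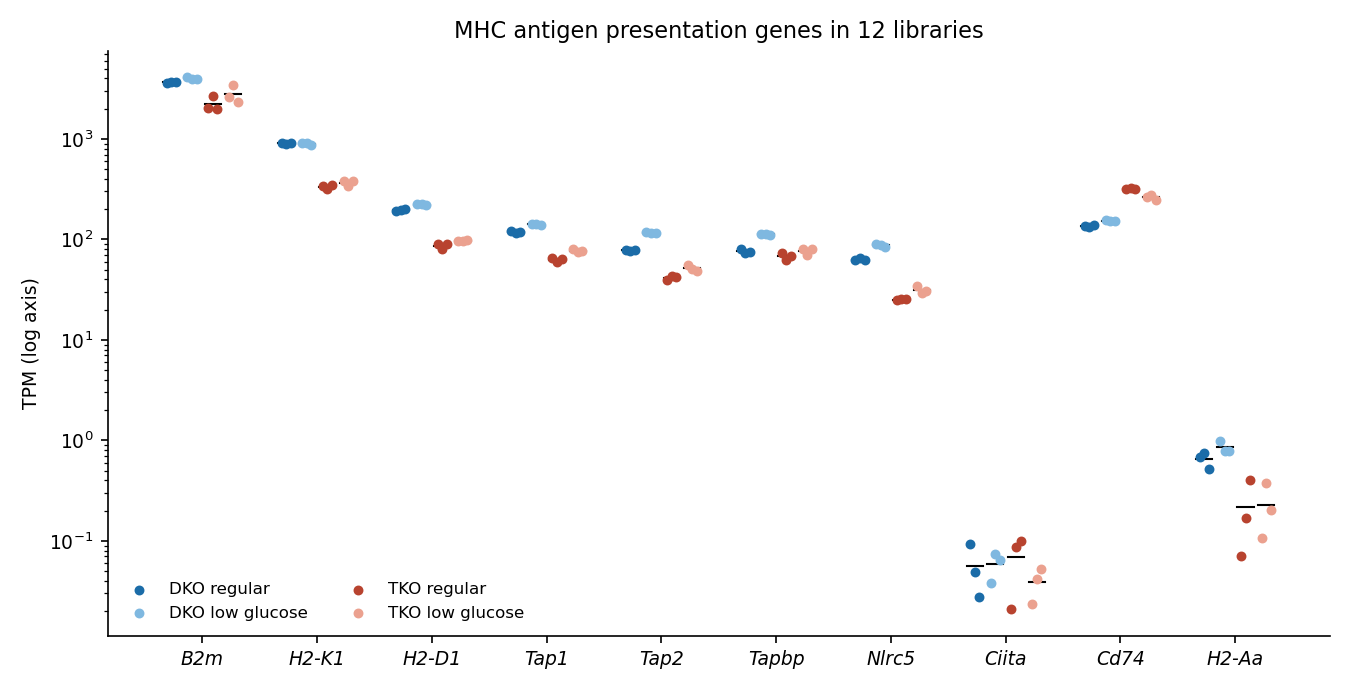
TPM of the 10 members in each of the 12 libraries on a log axis, with points for libraries, bars for the mean of 3 and colours for the 4 groups. Apart from Ciita, every member's DKO and TKO libraries in the same medium are apart, and Cd74 is the member that is higher in TKO. Among the members that are apart is H2-Aa, which passed the count filter through DKO libraries only. How many of all genes tested are apart in this way was not counted. Of all genes tested, 61.7% differed between the lines in regular medium and 74.6% in low glucose.

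In regular medium, 8 of the 10 members were lower in TKO than in DKO cells, 1 was higher and 1 was not called, at an adjusted p under 0.05 (edgeR's quasi-likelihood test, Benjamini-Hochberg over all 11988 genes). The background was large: 61.7% of all genes tested differed between the lines in regular medium, 33.4% lower and 28.3% higher in TKO. In low glucose the members again divided into 8 lower, 1 higher and 1 not called, beside 74.6% of all genes called, 37.4% lower and 37.2% higher. Without H2-Aa, which passed the count filter through DKO libraries alone, 7 members were lower in each medium. With H2-Aa included, the median log2 fold change of the members was -0.97 in regular medium and -1.08 in low glucose, and that of all genes tested was -0.014 and -0.0023.

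The class I heavy chains were both more than 2-fold lower in TKO cells. H2-K1 (chr17:33996017-34000347, minus strand) was at 912, 893 and 912 TPM in the 3 DKO libraries in regular medium and at 337, 314 and 349 TPM in the 3 TKO libraries. In low glucose the DKO libraries were at 911, 917 and 869 TPM and the TKO libraries at 379, 344 and 382. Every DKO library was above every TKO library, and the lines were 2.83-fold apart in regular medium (log2 -1.5 ± 0.0503 SE, adjusted p = 2.83e-12) and 2.55-fold apart in low glucose (log2 -1.35, adjusted p = 7.09e-12). H2-D1 (chr17:35262730-35267499, plus strand) was at 194, 195 and 202 TPM in DKO and 90.0, 79.5 and 89.6 in TKO libraries in regular medium. Its low glucose libraries were at 225, 224 and 218 TPM in DKO and 96.8, 97.2 and 98.7 in TKO. The groups did not overlap in either medium, and H2-D1 was 2.37-fold lower in TKO in regular medium (adjusted p = 2.08e-11) and 2.39-fold lower in low glucose (adjusted p = 1.46e-11).

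The 2 heavy chains are close paralogs, and how reads that match several H2 genes were counted is not given in the sources used here. Of the 100-base windows of their GENCODE transcripts, 100% for H2-K1 and 95.4% for H2-D1 occurred in no other gene's transcript. For 50-base windows the shares were 91.2% and 85.7%, so a part of the reads could have moved between them or from other H2 genes. These shares hold for the reference sequence. The labels do not give the strain of the lines, and so not their MHC haplotype, and the shares for the alleles of these cells are not known. Several nonclassical genes were less distinct. Of their 50-base windows, 57.1% of H2-T10, 55.3% of H2-T22, 71.2% of H2-T23 and 75.7% of H2-Q4 were unique, and their values are uncertain to that extent. The H2-K1 to H2-D1 ratio in TPM was 4.52 to 4.71 in DKO and 3.74 to 3.95 in TKO libraries in regular medium. In low glucose it was 3.99 to 4.09 in DKO and 3.54 to 3.91 in TKO libraries.

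B2m (chr2:122147686-122153083, plus strand), the light chain shared by all class I molecules, was lower in TKO by less than the heavy chains. It was at 3620, 3651 and 3664 TPM in DKO and 2027, 2681 and 2005 in TKO libraries in regular medium. In low glucose it was at 4102, 3941 and 3944 TPM in DKO and 2625, 3438 and 2341 in TKO. All TKO libraries lay below all DKO libraries of the same medium, and replicate 2 of TKO was the highest of its group in both media. The fold was 1.70 in regular medium (log2 -0.76 ± 0.122 SE, adjusted p = 8.23e-05) and 1.49 in low glucose (log2 -0.58 ± 0.122 SE, adjusted p = 6.73e-04). With TKO replicate 2 left out in both media the log2 fold change was -0.90 in regular medium and -0.76 in low glucose. In that replicate B2m stood at 1.30 times the mean of the other TKO libraries in regular medium and 1.41 times in low glucose, and H2-K1 at 0.899 and 0.923 times.

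The peptide transporter was lower in TKO in both subunits. Tap1 (chr17:34187553-34197225, plus strand) was at 122, 116 and 119 TPM in DKO and 65.4, 59.7 and 64.2 in TKO libraries in regular medium, a 1.96-fold difference (adjusted p = 1.08e-10). In low glucose it was at 142, 141 and 139 TPM in DKO and 79.7, 74.2 and 76.6 in TKO, which was 1.92-fold (adjusted p = 1.10e-10). Tap2 (chr17:34203527-34216321, plus strand) was at 79.2, 75.9 and 78.5 TPM in DKO and 39.3, 43.0 and 41.8 in TKO libraries in regular medium, also 1.96-fold (adjusted p = 2.49e-10). For Tap2 in low glucose the values were 118, 117 and 116 TPM in DKO and 56.2, 51.3 and 49.0 in TKO, a 2.34-fold difference (adjusted p = 1.16e-11). No TKO library reached a DKO library for either subunit. Tap1 overlaps the immunoproteasome gene Psmb9 on the opposite strand, and B2m, Tap2, Tapbp, Nlrc5 and Ciita each overlap an annotated gene on the opposite strand as well. Tapbp also overlaps the protein-coding gene Zbtb22 on its own strand, which no strand setting separates. The strand setting of the counting is not given in the sources used here, so reads of such pairs cannot be told apart.

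Tapbp, or tapasin, which bridges the transporter and the empty class I molecule (chr17:33915899-33929292, plus strand), differed least of the called members in regular medium. It was at 79.6, 73.4 and 75.1 TPM in DKO and 72.9, 63.0 and 68.8 in TKO libraries in regular medium. In low glucose it was at 114, 112 and 112 TPM in DKO and 80.1, 70.6 and 79.9 in TKO. The groups were close but did not overlap in regular medium, where TKO was 1.16-fold lower (log2 -0.22 ± 0.0599 SE, adjusted p = 0.00632). They were far apart in low glucose, where TKO was 1.53-fold lower (log2 -0.61 ± 0.0594 SE, adjusted p = 3.35e-07).

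Nlrc5 (chr8:94434356-94527272, plus strand), the class I transactivator, had the lowest adjusted p of the members in both line comparisons. Its libraries in regular medium were at 61.7, 64.8 and 62.5 TPM in DKO and 24.96, 25.46 and 25.27 in TKO. In low glucose they were at 90.9, 87.5 and 83.9 TPM in DKO and 34.2, 29.6 and 30.9 in TKO. No library of one line reached the other, and TKO was 2.60-fold lower in regular medium (log2 -1.38 ± 0.0446 SE, adjusted p = 1.81e-12) and 2.89-fold lower in low glucose (log2 -1.53 ± 0.0443 SE, adjusted p = 4.55e-13). Ciita (chr16:10480059-10528418, plus strand), the class II transactivator, gave 2 to 14 counts per library. Those counts were 14, 8 and 5 in DKO and 2, 7 and 10 in TKO libraries in regular medium, and 6, 9 and 10 in DKO and 3, 3 and 7 in TKO in low glucose. The groups overlapped and a difference was not detectable at this depth (log2 0.27 ± 0.545 SE, adjusted p = 0.690 in regular medium, and log2 -0.62 ± 0.602 SE, adjusted p = 0.365 in low glucose).

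Of the class II members, Cd74 was higher in TKO, and H2-Aa was lower on few counts. Cd74, on chromosome 18, was at 136, 132 and 139 TPM in DKO and 314, 327 and 318 in TKO libraries in regular medium, and at 157, 152 and 151 TPM in DKO and 266, 275 and 249 in TKO in low glucose. All TKO libraries were above all DKO libraries, by 2.26-fold in regular medium (log2 1.18 ± 0.0426 SE, adjusted p = 6.75e-12) and by 1.64-fold in low glucose (log2 0.71 ± 0.0424 SE, adjusted p = 1.49e-09). H2-Aa (chr17:34282744-34287823, minus strand) had 15, 18 and 14 counts in DKO and 1, 2 and 6 in TKO libraries in regular medium. In low glucose it had 23, 14 and 18 counts in DKO and 2, 4 and 4 in TKO. H2-Aa passed the count filter through DKO libraries only, so the filter favours its line difference, and its tests are no independent support. These few counts of H2-Aa did not overlap between the lines, and TKO was 2.98-fold lower in regular medium (log2 -1.57 ± 0.470 SE, adjusted p = 0.00963) and 4.29-fold lower in low glucose (log2 -2.10 ± 0.432 SE, adjusted p = 5.17e-04). Without TKO replicate 1 in regular medium, the library with 1 count, the first of these was not called (log2 -1.15, adjusted p = 0.0554).

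Chromosome 18 as a whole stood higher in TKO. The median log2 fold change of its 311 tested genes was 0.53 in regular medium and 0.61 in low glucose, against -0.0032 and -0.026 for the 635 genes of chromosome 17, which holds 6 of the members. Cd74 exceeded the median of its chromosome by 0.65 in regular medium, where 40 of the 311 genes stood above it, and by 0.10 in low glucose, where 119 did. The part of the chromosome in the level of Cd74 was not tested. Within the MHC region from H2-K1 to H2-M3 (chr17:33996017-37274484), 77 tested genes were neither on the list of antigen presentation genes nor named as other H2 genes. In regular medium 10 of these (13%) were lower and 29 were higher in TKO cells, with a median of 0.12, and 17 (22.1%) were lower and 24 higher in low glucose, with a median of 0.03.

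Dendritic cells and macrophages, which express class II strongly, were looked for by 12 markers. Their summed level was 35.8 to 38.3 CPM in DKO and 15.5 to 17.9 CPM in TKO libraries, most of it from Mrc1. Itgax and Clec9a had no count in any of the 12 libraries, and Adgre1 had 5 counts in all. Others were detected: in regular medium Lyz2 averaged 3.17 CPM in DKO and 0.427 in TKO, and Itgam 1.12 and 0.263. Not all were lower in TKO, as Cd68 averaged 2.68 and 2.67 CPM there and Fcer1g 0.0908 and 0.131. H2-Aa and the summed level of the 12 markers were both lower in TKO, and the part of such cells in the level of H2-Aa was not tested.

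**Figure D3:**
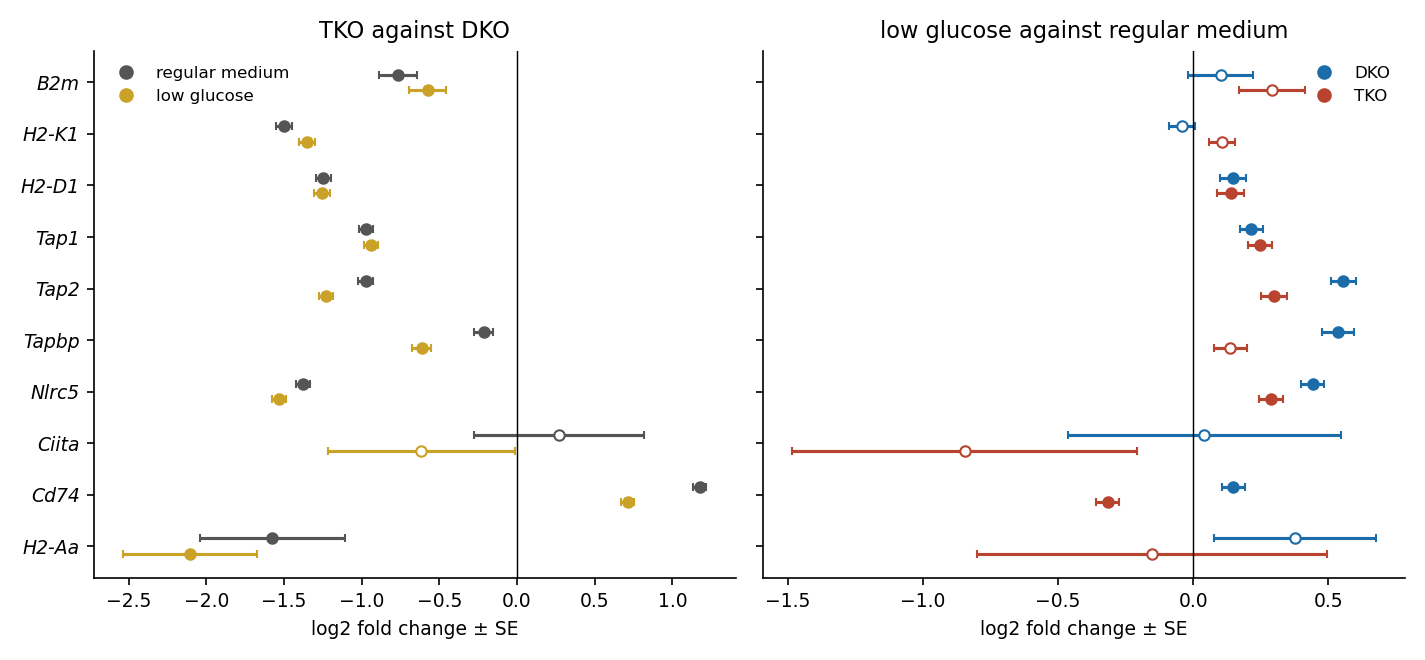
Log2 fold change ± SE of each member, for TKO against DKO in each medium on the left and for the response to low glucose in each line on the right; filled points have an adjusted p under 0.05. In both media 8 members have filled points left of 0 and Cd74 a filled point right of it, and most of the responses to low glucose on the right lie between 0 and 0.6. Among the 8 is H2-Aa, which passed the count filter through DKO libraries only.

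In the authors' deposited table of DESeq2 results the members had the same directions. H2-K1 was listed there at a log2 fold change of -1.48 in regular medium and -1.34 in low glucose. That table, the authors' deposited one, lists Nlrc5 at -1.36 and -1.52, Cd74 at 1.20 and 0.72, and Tapbp at -0.19 (adjusted p = 0.0146) and -0.60. H2-Aa was the least certain of the called members in the authors' deposited table, at -1.60 (adjusted p = 0.0480) in regular medium and -2.08 (adjusted p = 0.00327) in low glucose.

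The other genes of the pathway were taken from a list of 64 genes in 9 roles that includes the members, of which 57 were tested. Without the members, TKO cells had 28 of 47 genes lower and 10 higher in regular medium, and the median log2 fold change was -0.28. In low glucose 31 were lower and 10 higher, with a median of -0.35. The shares over all genes tested were 33.4% lower and 28.3% higher in regular medium, and 37.4% and 37.2% in low glucose.

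The class I side of the list was lower in TKO almost throughout. The counts that follow stand beside 33.4% of all genes tested that were lower in regular medium and 37.4% in low glucose. Of the 8 nonclassical class I genes tested, 7 were lower in regular medium and all 8 in low glucose. H2-Q4 differed by -1.41 and -1.04 on the log2 scale, H2-T23, which encodes the mouse counterpart of HLA-E, by -0.99 and -1.23, and H2-T24 by -1.15 and -1.06. Cd1d1, which presents lipids to natural killer T cells, was the exception in regular medium at 0.33 (adjusted p = 6.16e-05), and it was at -0.15 in low glucose (adjusted p = 0.0129). All 8 genes of peptide transport and loading were lower in both media. Beyond the 3 members these were the tapasin relative Tapbpl at -0.52 in regular medium and -0.81 in low glucose, the chaperones Calr (-0.37 and -0.51) and Canx (-0.28 and -0.22), the oxidoreductase Pdia3 (-0.28 and -0.41) and the trimming peptidase Erap1 (-0.24 and -0.21). Of the 5 immunoproteasome genes 4 were lower in each medium, led by the catalytic subunits Psmb9 (-0.92 and -0.78) and Psmb8 (-0.66 and -0.48). The proteasome activator Psme1 was not called, at -0.20 (adjusted p = 0.0746) and -0.05 (adjusted p = 0.597).

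Single class II genes differed in both directions. H2-Ab1, the class II β-chain that pairs with H2-Aa, was at 7.49, 5.63 and 6.57 TPM in DKO and 30.2, 31.1 and 26.2 in TKO libraries in regular medium, and at 11.56, 11.10 and 10.96 in DKO and 48.7, 51.0 and 40.7 in TKO in low glucose. It was thus higher in every TKO library, by 4.26-fold (adjusted p = 7.16e-10) and 3.96-fold (adjusted p = 2.50e-10). Its partner H2-Aa, which passed the count filter through DKO libraries only, was lower on few counts. H2-Eb1 was lower in TKO by log2 -1.72 and -1.45, and H2-Eb2 higher by 0.36 and 0.67. Of the 10 genes of class II loading, 5 were higher and 2 lower in TKO in regular medium, and 4 were higher and 4 lower in low glucose. Nothing is read from these counts for so few genes: of all genes tested, 28.3% were higher and 33.4% lower in regular medium, and 37.2% and 37.4% in low glucose. Ifi30, a lysosomal thiol reductase, was 3.60-fold higher (adjusted p = 8.93e-12) and 3.13-fold higher (adjusted p = 1.29e-11). The endosomal protease Lgmn was higher by log2 1.21 and 0.67, and Ctss, the protease that degrades the invariant chain, was lower by -0.44 and -0.73.

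Among the 9 regulators of the enhanceosome, 4 were lower and 1 higher in regular medium, and 4 were lower and 4 higher in low glucose. Of all genes tested, 33.4% were lower and 28.3% higher in regular medium, and 37.4% and 37.2% in low glucose, so nothing is read from these counts for so few genes. Beside Nlrc5 the RFX subunits Rfxap (-0.53 and -0.39) and Rfxank (-0.33 and -0.52) were lower, and Rfx5 was at 0.09 (adjusted p = 0.143) and -0.16 (adjusted p = 0.00916). The NF-Y subunit Nfyc was higher by 0.20 and 0.39. Of the 10 genes of interferon and NF-kB input, 6 were lower in each medium. The interferon regulatory factor Irf1 differed by -0.64 in regular medium (adjusted p = 1.19e-08) and -0.87 in low glucose (adjusted p = 2.15e-10), Irf8 by -0.92 and -0.71, and the interferon-γ receptor chain Ifngr2 by -0.56 and -0.84. Jak1 was higher by 0.25 and 0.26.

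**Figure D4:**
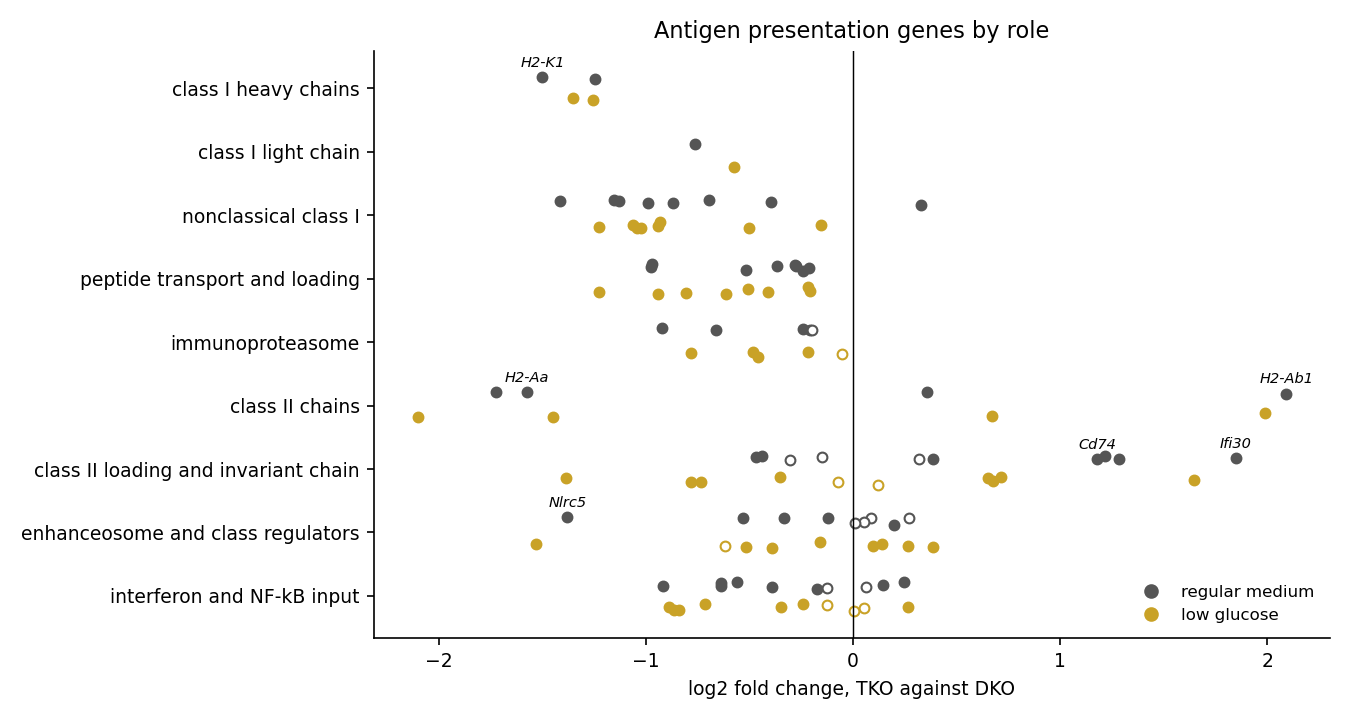
Log2 fold change of each tested gene of the pathway list in TKO against DKO cells, by role, in regular medium and in low glucose; filled points have an adjusted p under 0.05. Class I, transport and loading, and immunoproteasome genes lie left of 0 apart from Cd1d1 in regular medium (0.33), while H2-Ab1 and Ifi30 lie right of it near 2.

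The tested genes outside the list whose levels were most like H2-K1 were Arl5c, Frmd6 and 0610040J01Rik, each with a Pearson correlation of 0.999 in log2 CPM over the 12 libraries. Such correlations were common, since 1012 of 11931 genes reached one over 0.95, and the measure is a description.

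In DKO cells 6 of the 10 members were higher after 24 h of low glucose and none was lower, beside 62.7% of all genes called, 31.6% higher and 31.1% lower. None was lower at an unadjusted p under 0.05 either, nor by DESeq2 or by limma on TPM. The median was 0.18 on the log2 scale, and 0.014 over all genes. Between the group means, Tap2 rose by 1.47-fold (log2 0.56 ± 0.0460 SE, adjusted p = 1.29e-07), Tapbp by 1.45-fold (log2 0.54 ± 0.0589 SE, adjusted p = 2.18e-06) and Nlrc5 by 1.36-fold (log2 0.44 ± 0.0429 SE, adjusted p = 6.34e-07). Tap1 rose by 1.16-fold (adjusted p = 6.26e-04), Cd74 by 1.11-fold (adjusted p = 0.00723) and H2-D1 by 1.11-fold (adjusted p = 0.0152). The H2-D1 call was lost without DKO replicate 1 or 2 in regular medium or replicate 2 in low glucose (adjusted p = 0.0524 to 0.0578). The low glucose libraries of these 6 genes all lay above the regular ones. H2-K1 was at log2 -0.04 (adjusted p = 0.495) with overlapping libraries, B2m at 0.10 (adjusted p = 0.487), H2-Aa at 0.38 (adjusted p = 0.292) and Ciita at 0.04 (adjusted p = 0.957). Every low glucose DKO library lay above every regular one for B2m, and with only the 2 DKO groups in the fit B2m was called (adjusted p = 4.09e-04).

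In TKO cells 4 members were higher and 1 was lower in low glucose, beside 39.9% of all genes called, 22% higher and 17.9% lower. Tap2 rose by 1.23-fold (log2 0.30 ± 0.0490 SE, adjusted p = 3.05e-04), Nlrc5 by 0.29 on the log2 scale (± 0.0446 SE, adjusted p = 1.94e-04) and Tap1 by 1.19-fold (log2 0.25 ± 0.0452 SE, adjusted p = 6.86e-04). For these 3 genes every low glucose library lay above every regular one. H2-D1 was called at 1.10-fold (adjusted p = 0.0417), a call that 12 of 20 alternatives lost. It was lost without any 1 of the 3 DKO libraries in regular medium, DKO replicate 3 in low glucose, TKO replicate 2 in regular medium or any 1 of the 3 TKO libraries in low glucose (adjusted p = 0.0566 to 0.156). Cd74 fell by 0.32 on the log2 scale (adjusted p = 5.75e-05), and its 3 low glucose libraries lay below the 3 regular ones. H2-K1 was at 0.11 (adjusted p = 0.102), H2-Aa at -0.15 (adjusted p = 0.878) and Ciita at -0.84 (adjusted p = 0.317), all with overlapping libraries. B2m was at 0.29 (adjusted p = 0.0737) and Tapbp at 0.14 (adjusted p = 0.0846), again with overlap. B2m was called without TKO replicate 2 in regular medium (0.43) or replicate 3 in low glucose (0.40), Tapbp without TKO replicate 1 in regular medium (0.19) or replicate 2 in low glucose (0.18), and H2-K1 without TKO replicate 2 in low glucose (0.14). Same-numbered TKO libraries deviated together, but replicates 1 and 3 did so across numbers as well, so their pairing is not shown. With the replicate number as a block in the 6 TKO libraries B2m was called at 0.26 (adjusted p = 7.61e-05) and Tapbp at 0.12 (adjusted p = 0.0279). That fit called more genes in all, 5773 of 11267, against 4781 of 11988 in the fit of 12 libraries with no block. In that fit with the block H2-D1 was at 0.12 and not called (adjusted p = 0.0661).

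The difference between the 2 responses was tested as the interaction, the TKO response minus the DKO response. Of the members 3 had a more negative response in TKO and none a more positive one, beside 29.6% of all genes called, 12.1% more negative and 17.6% more positive. None was more positive at an unadjusted p under 0.05, by DESeq2 or by limma on TPM, but with TKO replicate 2 left out of low glucose H2-K1 was called (0.18, adjusted p = 0.0451), and with that replicate out in both media H2-K1 (0.14, adjusted p = 0.0280) and B2m (0.14, adjusted p = 0.0362) were. Cd74 had the largest called difference, at log2 -0.46 ± 0.0597 SE (adjusted p = 6.57e-05), since it rose in DKO and fell in TKO. Tapbp differed by -0.40 ± 0.0843 SE (adjusted p = 0.00280) and Tap2 by -0.26 ± 0.0671 SE (adjusted p = 0.0108). For H2-K1, H2-D1, B2m, Tap1, H2-Aa, Nlrc5 and Ciita no difference in response was called. Nlrc5 stood nearest to the threshold of these at -0.15 ± 0.0618 SE (adjusted p = 0.0777). It was called with RLE size factors (adjusted p = 0.0465), with DESeq2 (adjusted p = 0.0265), without the filter on low counts (adjusted p = 0.0181) and without TKO replicate 1 in low glucose (adjusted p = 0.0125).

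Of the 47 tested list genes that are no members, 27 rose and 10 fell with low glucose in DKO cells, and 23 rose and 9 fell in TKO cells. Of all genes tested 31.6% rose and 31.1% fell in DKO, and 22% rose and 17.9% fell in TKO, and the falls in the list were below or near these shares. With Cd74 the number that fell in TKO was 10, and it was 4 to 6 without any 1 of DKO replicates 1 and 2 in low glucose, TKO replicates 1 and 3 in regular medium or TKO replicate 1 in low glucose, and 3 with only the TKO groups in the fit. In class II loading 9 of the 10 genes, Cd74 included, rose in DKO, and 7 rose and 2 fell in TKO. H2-Oa, part of the brake on class II loading, was at 17.6, 15.3 and 18.2 TPM in regular and 37.89, 36.03 and 37.22 in low glucose DKO libraries, a 2.13-fold rise (adjusted p = 6.54e-09). In TKO it went from 16.1, 15.5 and 16.2 to 23.4, 23.2 and 21.3 TPM, a 1.38-fold rise (adjusted p = 4.96e-04), and the responses differed by log2 -0.63 (adjusted p = 5.30e-04). H2-DMa, the α-chain of the loading catalyst, was at 1.20, 1.14 and 1.23 TPM in regular and 1.52, 1.92 and 1.63 in low glucose DKO libraries, and at 0.988, 1.09 and 0.949 and then 0.667, 0.942 and 0.519 in TKO. It rose in DKO by log2 0.46 (adjusted p = 0.0154) and fell in TKO by 0.62 (adjusted p = 0.0376), a difference of -1.08 (adjusted p = 0.00755). H2-Ab1 and Ifi30 rose in both lines, H2-Ab1 by 0.75 and 0.64 and Ifi30 by 0.77 and 0.57. Ifngr2 rose by 0.75 in DKO and 0.47 in TKO. Of the 5 immunoproteasome genes 3 fell in DKO and 2 in TKO, with Psme2, which encodes a proteasome activator subunit, in both (-0.26 and -0.23), and the others were not called.

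**Figure D5:**
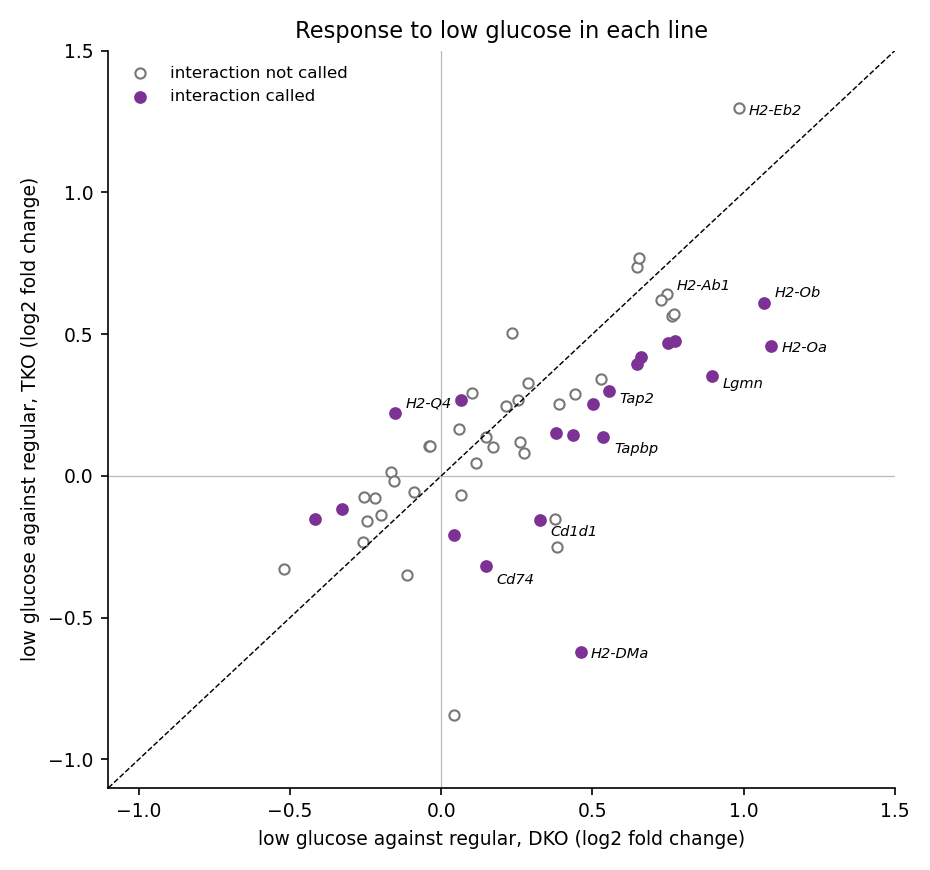
Log2 fold change of each tested list gene in low glucose against regular medium, in DKO cells on the x axis and TKO cells on the y axis, with a dashed line of equal response; filled points have an interaction with an adjusted p under 0.05. The axes share no library. Most genes lie above 0 on both axes, and Cd74, H2-DMa and Cd1d1 are among the genes that lie above 0 in DKO and below it in TKO.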

How the data were processed

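Per the labels' protocols, total RNA was purified on columns and libraries were made with a strand-specific mRNA kit. Per the submitters' processing notes, the authors used STAR 2.7.3a, DESeq2 1.22.1 and mm10; the counting step is not given in the sources used here. The authors' count table gives raw read counts by gene symbol as integers, and the authors' TPM table gives TPM. For 99.9% of 9717 genes the ratio of deposited TPM to count, scaled per library, varied by less than 1%, so TPM adds the length and no other evidence. Per the file headers, the authors' DESeq2 tables hold a mean expression and a test statistic, which are scores, log2 fold changes with errors, and p-values.

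Counts were tested with edgeR 4.0.16 in R 4.3.3: filterByExpr (count minimum 10, total minimum 15, which came to 0.242 CPM in 3 libraries), TMM, and 1 quasi-likelihood model with 4 group means over 12 libraries (8 residual degrees of freedom). Calls are at 0.05 after Benjamini-Hochberg adjustment over all genes tested. The steps were tested on simulated data. Alternatives were RLE size factors, no count filter, DESeq2 1.42.0, limma 3.58.1 on log2(TPM + 1) of genes with 1 TPM in 3 libraries, each library left out, only the groups compared, and the replicate number as a block. After the data were seen, 2 more were added: TKO replicate 2 left out in both media, and the block within TKO. The members, gene lists, markers and motifs were chosen with earlier results of these data known. All members are named, and from each role list called genes, including those with the lowest adjusted p.

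Titles give the same replicate numbers in each group. Deviations of same-numbered libraries from their group means correlated at 0.25, 0.61 and 0.79 between the TKO groups, and not all over 0.1 for the other pairs of groups. TKO replicates 1 and 3 also correlated across numbers, at 0.58 (1 in regular medium with 3 in low glucose) and 0.22 (3 with 1). Only replicate 2 was thus set apart by its number, and pairing of replicates 1 and 3 is not shown. Replicates differed beyond sampling noise (chi-square per degree of freedom at least 1.98). Positions come from GENCODE and promoters from RefSeq, both on GRCm38. MARCH1 was matched to Marchf1. The values of 1 gene of the list, which stays in the counts, are not reported here.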

Additional observations from a re-analysis of the deposited data

Results flagged for a closer look

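For 20 genes of the pathway list, 3 of them members, the response to low glucose differed between the lines by the test of the interaction (edgeR's quasi-likelihood test, adjusted p under 0.05 over all genes), beside 29.6% of all genes. Values are log2 differences, with the DKO response subtracted from that of TKO. The members were Cd74 at -0.46, Tapbp at -0.4 and Tap2 at -0.26. In class II loading the others were H2-DMa at -1.08, H2-Oa at -0.63, Lgmn at -0.54, H2-Ob at -0.46 and Ctss at -0.3. Among class I genes and their loading these were Cd1d1 at -0.48, Tapbpl at -0.29, Psmb10 at -0.25, H2-T23 at -0.24 and H2-Q4 at 0.37. Regulators and their input included Ifngr2 at -0.28, Rfx5 at -0.25, Irf1 at -0.23, Irf8 at 0.2, Nfya at 0.21 and Nfyb at 0.26.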

How the results depend on the processing

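No value reversed its direction among called results. The count of members lower in TKO was 7 to 8 in each medium under 19 alternatives, and that of members higher was 1. Within TKO cells, the count of list genes that were lower in low glucose than in regular medium, 10, was 3 with only the groups compared, and it ranged from 4 to 10 with 1 library left out. It was 6 without DKO replicate 1 and 5 without DKO replicate 2 in low glucose, 4 without TKO replicate 1 and 5 without TKO replicate 3 in regular medium, and 5 without TKO replicate 1 in low glucose. For the interaction, list genes with a more positive response numbered 4, and they were 1 without the filter on low counts and 8 with TKO replicate 2 left out in both media. Members with a more positive response numbered 0, ranged from 0 to 1 with 1 library left out (1 without TKO replicate 2 in low glucose), and were 2 with that replicate out in both media. Causes were not tested. The replicate block over all 12 libraries called B2m (0.29, adjusted p = 0.0295) and Tapbp (0.14, adjusted p = 0.0365) in TKO low glucose and changed no other call of a member. In the block within TKO, H2-T10 was lost and Calr gained beside the calls already given. H2-K1 in TKO low glucose was called by DESeq2 (adjusted p = 0.0498) and by limma on TPM (adjusted p = 0.0408). Over all alternatives, single members gained a call 25 times, lost one 16 times and did neither 891 times. Low counts limit Ciita and H2-Aa.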

Other observations

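Levels of partner chains were set against each other in TPM, as values with no test. The ratio of B2m to the sum of H2-K1 and H2-D1 was 3.28 to 3.36 in DKO and 4.57 to 6.81 in TKO libraries in regular medium, and 3.45 to 3.63 in DKO and 4.87 to 7.79 in TKO in low glucose. The highest value of each TKO group was that of replicate 2. The ratio of Cd74 to H2-Ab1 was 18.2 to 23.5 in DKO and 10.4 to 12.1 in TKO libraries in regular medium, and 13.6 to 13.8 in DKO and 5.39 to 6.11 in TKO in low glucose.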
